A study of Homo sapiens with 6 samples.

Results

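Cyclic nucleotide phosphodiesterases are the enzymes that break down the second messengers cAMP and cGMP. The genes described here are PDE4A, PDE4B, PDE4D, PDE3A, PDE5A, PDE7A, PDE7B, PDE8A and PDE10A, which are 9 of the 60605 genes in the deposited expression table and were found in it by their gene symbols. The group was chosen by a list of names drawn up around PDE4B, with the difference of PDE4B between the arms of this experiment already known, so the differences of these 9 genes between the arms are given as a description and not as tests.

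Poly(A)-selected RNA of MDA-MB-231, an established breast cancer line of the triple-negative subtype, was sequenced in 3 control libraries (shControl, an shRNA control) and 3 libraries of cells in which PUS1 was knocked down (shPUS1). PUS1 is a pseudouridine synthase, an enzyme that isomerises uridine in RNA, and the comparison was made to find genes downstream of it. The methods describe short hairpin RNAs against PUS1 in a puromycin-resistant pLKO.1 lentiviral vector, with puromycin selection. The titles number the 3 libraries of each arm as biological replicates. Which of the hairpins the sequenced cells carried, and whether each replicate was infected separately, is not given in the sources used here. The deposited names of the 3 knockdown libraries share the same knockdown number ahead of the replicate number, and its meaning is not explained there.

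A phosphodiesterase lowers the cyclic nucleotide level near the place where it sits in the cell, and so limits how far and how long protein kinase A, the EPAC exchange factors and protein kinase G are active. The PDE4, PDE7 and PDE8 enzymes act on cAMP, PDE5A acts on cGMP, and PDE3A and PDE10A act on both. The PDE4 enzymes are held at different sites by scaffold proteins, and the genes that encode them use many promoters, of which some are switched on by cAMP itself through the factor CREB.

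The targeted gene was lower in the knockdown. PUS1 stood at 14.5, 27.5 and 12.1 CPM (counts relative to a library total scaled by the TMM method) in shControl replicates 1, 2 and 3, and at 6.57, 5.47 and 5.37 CPM in shPUS1 replicates 1, 2 and 3, with no overlap between the arms and a log2 fold change of -1.64 ± 0.32, or -1.20 without shControl replicate 2. The libraries held 14241505 to 19625998 counts. The library shControl replicate 2 stood apart. Its log2 CPM correlated across genes, which are not independent replicates, with the other 2 controls at r = 0.951 and 0.952. Between those 2 controls r was 0.981. With the shPUS1 libraries those 2 controls correlated at 0.966 to 0.977, higher than with shControl replicate 2. The fold change of each member is therefore also given without shControl replicate 2. The MDA-MB-231 markers VIM, CD44, AXL, MSN and ANXA1 were all high, with a summed level of 966 to 1097 FPKM in shControl and 761 to 816 FPKM in shPUS1. FPKM relates the count to the exonic length of a gene and to the library's total. The luminal markers ESR1, PGR, FOXA1 and CDH1 were at or near 0, although 6 of the 10 luminal markers had a mean of at least 1 FPKM and the list summed to 94.1 to 148 FPKM in shControl and 100 to 107 FPKM in shPUS1. Of 5 leukocyte markers, CD3E had no reads in any library, and the list summed to 1.17 to 3.04 FPKM in shControl and 2.06 to 2.91 FPKM in shPUS1, most of it from CD14 (1.17 to 2.95 and 2.0 to 2.91 FPKM).

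On a scale per exonic length, PDE4A was the highest of the 9 genes in both arms and PDE3A was close to absent. The order depends on the exonic length given to each gene, which was 8004 bases for PDE8A and 24783 for PDE10A. These genes had 1924 and 1928 counts in shControl, so the order below holds for this scale only. In shControl the mean levels were 7.37 ± 1.65 FPKM (SD, n = 3) for PDE4A, 4.79 ± 1.13 FPKM for PDE8A, 3.07 ± 0.958 FPKM for PDE4D, 1.62 ± 0.327 FPKM for PDE10A and 1.6 ± 0.34 FPKM for PDE7B. They were 1.22 ± 0.24 FPKM for PDE7A, 0.74 ± 0.236 FPKM for PDE4B, 0.273 ± 0.131 FPKM for PDE5A and 0.0233 ± 0.00577 FPKM for PDE3A. The ranges of PDE4A and PDE8A overlapped in shControl, as did those of PDE10A and PDE7B and of PDE7B and PDE7A, so the order within each of these pairs was not larger than the spread between libraries. In shPUS1 no 2 neighbours in the order overlapped. The order there was PDE4A (9.83 ± 0.454 FPKM), PDE8A (4.75 ± 0.269 FPKM), PDE4D (2.20 ± 0.123 FPKM), PDE10A (1.54 ± 0.131 FPKM), PDE7A (1.29 ± 0.114 FPKM), PDE7B (0.833 ± 0.0603 FPKM), PDE5A (0.41 ± 0.105 FPKM), PDE4B (0.19 ± 0.0265 FPKM) and PDE3A (0.00667 ± 0.00577 FPKM). PDE5A stood above PDE4B in shPUS1 and below it in shControl, without overlap in either arm. PDE7A stood above PDE7B in every shPUS1 library and, of the controls, in shControl replicate 2. The summed level of the 9 genes was 20.7 ± 2.61 FPKM in shControl and 21.1 ± 0.94 FPKM in shPUS1, a difference smaller than the spread between libraries.

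**Figure D1:**
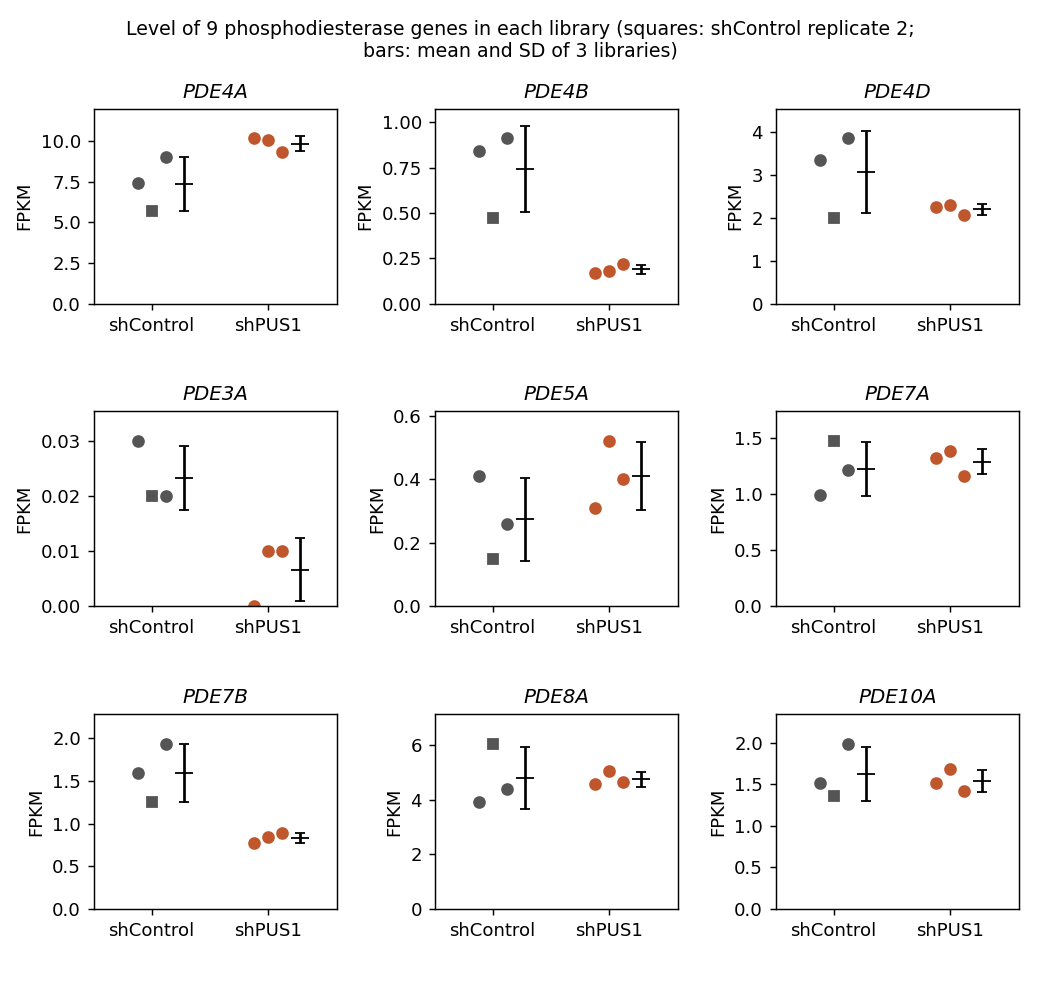
Level of each of the 9 phosphodiesterase genes in FPKM (vertical axes, starting at 0 and scaled gene by gene) in the shControl and shPUS1 libraries; each point is a library, squares mark shControl replicate 2, and the bars give the mean and SD of 3 libraries. The 3 shPUS1 points of PDE4B (0.17 to 0.22 FPKM) and of PDE7B (0.77 to 0.89 FPKM) lie below all shControl points, while those of PDE8A and PDE10A lie within the range of the shControl points.

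Among the PDE4 genes, which encode the cAMP-specific enzymes that rolipram inhibits, the 3 members measured here went in different directions. PDE4B (ENSG00000184588, chromosome 1, 65792514 to 66374579, plus strand) encodes the isoform best known for its part in inflammatory signalling. Its counts were 112, 83 and 116 in shControl replicates 1, 2 and 3 and 28, 30 and 33 in shPUS1, which is 7.33, 4.35 and 7.90 CPM against 1.56, 1.64 and 1.95 CPM. All 3 knockdown libraries lay below the lowest control library, shControl replicate 2. The log2 fold change of its CPM, shPUS1 minus shControl, was -1.92 ± 0.30 (standard error), a level 3.79-fold lower, and it was -2.15 ± 0.21 without shControl replicate 2. The level rests on 28 to 116 reads a library, and in bulk RNA fewer cells with the transcript and less transcript in each cell cannot be told apart.

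PDE4A (ENSG00000065989, chromosome 19, 10416773 to 10469630, plus strand) had the highest FPKM of the PDE4 members. Its exonic length is 6762 bases, against 16236 for PDE4D, and in shControl its mean CPM was 49.3, beside 49.2 for PDE4D. By library, PDE4A stood at 49.2, 39.7 and 59.1 CPM in shControl and 69.7, 68.1 and 63.6 CPM in shPUS1. Here the knockdown libraries lay above every control library, with shControl replicate 2 the lowest, and the log2 fold change was 0.44 ± 0.16, or 0.30 ± 0.11 without that library. PDE4D (ENSG00000113448, chromosome 5, 58969038 to 60522120, minus strand), which encodes the PDE4 isoform tied to beta-adrenergic signalling, stood at 53.5, 33.4 and 60.6 CPM in shControl and 37.1, 37.3 and 33.7 CPM in shPUS1. Its arms overlapped through shControl replicate 2 alone, the log2 fold change was -0.45 ± 0.22 with all libraries, and it was -0.67 ± 0.10 without shControl replicate 2.

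The make-up of the PDE4 transcripts within a library separated the arms, shControl replicate 2 included. PDE4A made up 63.8%, 69.8% and 65.4% of the summed PDE4 FPKM in shControl replicates 1, 2 and 3 and 80.7%, 80.2% and 80.3% in shPUS1. The share of PDE4B was 7.24%, 5.75% and 6.61% in shControl and 1.35%, 1.44% and 1.90% in shPUS1, and that of PDE4D was 28.9%, 24.4% and 28% against 17.9%, 18.3% and 17.8%. The shares do not depend on how libraries were scaled to each other, but they do depend on the exonic length given to each gene. The ratio of PDE4A to PDE4B was 8.82, 12.1 and 9.89 in shControl and 59.7, 55.7 and 42.3 in shPUS1. The ratio of PDE4D to PDE4B was 4.0, 4.26 and 4.23 in shControl and 13.2, 12.7 and 9.36 in shPUS1. The sum of the 3 PDE4 genes was 11.6, 8.18 and 13.8 FPKM in shControl and 12.6, 12.5 and 11.6 FPKM in shPUS1, so the arms overlapped in the sum while they did not in the shares.

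**Figure D2:**
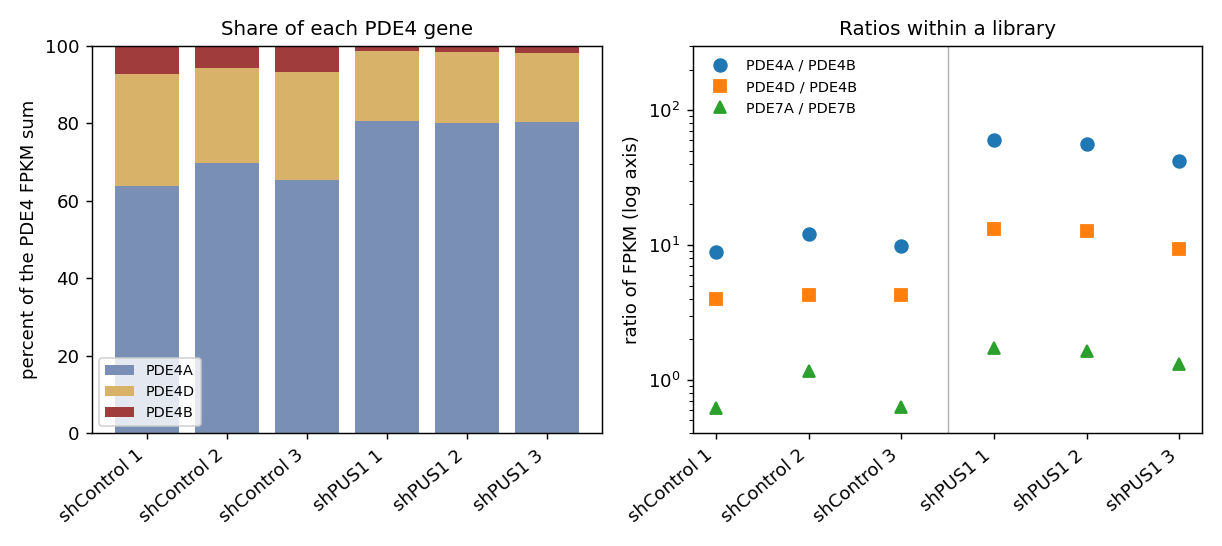
Left, the percent of the summed FPKM of PDE4A, PDE4D and PDE4B that each gene took in each library; right, ratios of FPKM between members within each library (log axis), with the vertical line between the arms. PDE4A took 63.8% to 69.8% of the sum in the shControl libraries and 80.2% to 80.7% in the shPUS1 libraries, and all 3 ratios are higher in every shPUS1 library than in any shControl library.

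PDE7A and PDE7B encode cAMP-specific enzymes that rolipram does not inhibit, and PDE8A encodes one of very high affinity for cAMP. PDE7B (ENSG00000171408, chromosome 6, 135851701 to 136195574, plus strand) stood at 9.36, 7.71 and 11.2 CPM in shControl and 4.62, 5.03 and 5.31 CPM in shPUS1. Every knockdown library lay below every control library, and the log2 fold change was -0.91 ± 0.21, a level 1.88-fold lower, or -1.05 ± 0.16 without shControl replicate 2. PDE7A (ENSG00000205268) stood at 10.3, 16.0 and 12.5 CPM in shControl and 14.2, 14.7 and 12.5 CPM in shPUS1. The knockdown libraries lay within the range of the controls, with shControl replicate 2 the highest of all 6, and the log2 fold change was 0.09 ± 0.20, or 0.27 ± 0.14 without it. The ratio of PDE7A to PDE7B was 0.619, 1.17 and 0.624 in shControl and 1.71, 1.64 and 1.3 in shPUS1. PDE8A (ENSG00000073417) stood at 30.7, 49.9 and 34.3 CPM in shControl and 37.1, 40.6 and 37.5 CPM in shPUS1. Its log2 fold change was 0.00 ± 0.19 with all libraries and 0.24 ± 0.10 without shControl replicate 2, the highest library for this gene.

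The members that act on cGMP or on both messengers showed no separation of the arms, apart from the few reads of PDE3A. PDE5A (ENSG00000138735), which encodes the cGMP-specific enzyme that sildenafil inhibits, stood at 3.86, 1.47 and 2.38 CPM in shControl and 3.0, 4.98 and 3.90 CPM in shPUS1. The arms overlapped, and the log2 fold change was 0.63 ± 0.39, or 0.33 ± 0.30 without shControl replicate 2. PDE10A (ENSG00000112541), best known from the striatum of the brain, stood at 36.9, 34.7 and 47.9 CPM in shControl and 38.2, 41.7 and 35.6 CPM in shPUS1, with overlapping arms and a log2 fold change of -0.05 ± 0.16, or -0.15 ± 0.13 without shControl replicate 2. PDE3A (ENSG00000172572), which encodes the cAMP-degrading enzyme that cGMP inhibits, had 5, 4 and 4 counts in shControl and 0, 3 and 2 counts in shPUS1. These are at or near a floor of 3 counts per library, the gene was too low to be fitted, and no fold is given.

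Of the 9 members, 8 had enough reads to be fitted in edgeR. Of these, 1, PDE4B, met the thresholds used across all genes (a Benjamini-Hochberg adjusted p under 0.05 together with a log2 fold change of 1 or more in either direction), as did 1.37% of the 14748 genes fitted. The threshold on p alone, met by 2.58% of all genes, gave the same count for the members. The arms did not overlap in CPM for 3 of the 8 (PDE4A higher, PDE4B and PDE7B lower), as for 36.1% of all genes. Without shControl replicate 2 the thresholds were met by 2 members, PDE4B and PDE7B, and by 3.28% of all genes. Without shControl replicate 1, or without any 1 of the shPUS1 libraries, 0 members met them, and at most 11 genes of the whole table did. The median log2 fold change was -0.02 over the 8 members and -0.03 over all genes. PDE4B and PDE7B lay on either side of the fold threshold, at -1.92 and -0.91, and nothing is read from these counts, since the members were selected on this same comparison.

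**Figure D3:**
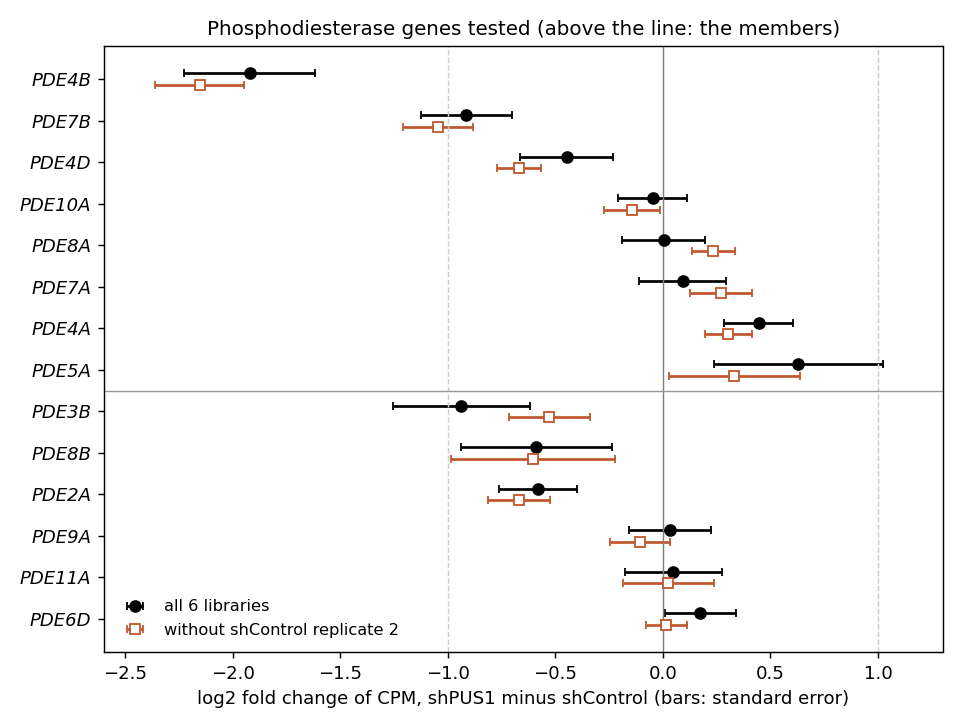
Log2 fold change of CPM (horizontal axis, shPUS1 minus shControl) with its standard error for the 8 fitted members, above the line, and for 6 other phosphodiesterase genes, below it; black circles use all 6 libraries, open squares leave out shControl replicate 2, and dashed lines mark -1 and 1. PDE4B is the only member beyond -1 with all libraries (-1.92), and PDE7B passes it when shControl replicate 2 is left out (-1.05).

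The gene models bear on how these counts can be read. In GENCODE release 29 (GRCh38) PDE4B has 18 transcripts with 18 distinct starts, PDE4D has 29 transcripts with 27 starts, PDE4A has 9 with 9, and PDE7B has 3 with 3. The deposited value is a sum over the transcripts of a gene, so which of these promoters or isoforms differed was not measured. No stretch of 100 bases of any member's transcripts was found in the transcript of another gene, read in its own direction. This search and the shared exonic bases below used release 29, where PDE7A has 7425 exonic bases against 10601 in the deposited table. The deposited span of PDE7A also holds ENSG00000272155 on the same strand. That gene had 0 counts in each shControl library and 2.32, 2.49 and 5.36 counts in shPUS1. The reverse complement was not searched, and exons shared with genes on the opposite strand are given next. The span of PDE4B overlaps that of the antisense gene PDE4B-AS1 and of RNU4-88P, both at 0 counts in every library. PDE4A overlaps CDC37 on the opposite strand without sharing exonic bases. PDE7B shares 452 exonic bases, or 7.6% of its own, with the opposite-strand gene ENSG00000237596. That gene stood at 1.77, 0.21 and 1.43 CPM in shControl and 2.73, 3.17 and 3.07 CPM in shPUS1, higher where PDE7B was lower. PDE5A shares 542 exonic bases (5.54%) and PDE7A 116 (1.56%) with a neighbour on the opposite strand. Whether the counting used strand is not given in the sources used here, and without strand such reads cannot be told apart. Counts of both genes of such a pair were in part not whole. In shControl replicate 1 PDE5A had 59.111 counts and its opposite-strand neighbour SEPTIN7P14 had 70.89. How reads were divided between the genes of a pair was not tested.

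Start regions of the 3 PDE4 genes and of PDE7B are shown because some PDE4 promoters are known to answer to CREB and PDE7B holds the other CRE found. No window of PDE7A was searched, so its start region is not described. For the other 8 of the 9 members, 29 windows from RefSeq (GRCh38.p14) were used, from 250 bases before to 50 bases after a start. Each was searched on both strands for the CRE, TGACGTCA, which reads the same on both strands, and for its core TGACG, of which each CRE holds 2 overlapping copies, 1 on each strand. The CRE is in 2 of the 29 windows, 1 of PDE4A and the single window of PDE7B, and in 1.85% of all 35116 windows of this length. The core is in 4 of the 29 (1 each of PDE4A, PDE4D, PDE5A and PDE7B), against 24.6% of all windows. Of the 6 windows of PDE4B, 0 hold either. In the sequences below, 5′ to 3′ on the strand of the gene, capitals mark the core on either strand, joined to the full CRE where the copies overlap.

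PDE4A, chr19:10416523-10416822, plus strand: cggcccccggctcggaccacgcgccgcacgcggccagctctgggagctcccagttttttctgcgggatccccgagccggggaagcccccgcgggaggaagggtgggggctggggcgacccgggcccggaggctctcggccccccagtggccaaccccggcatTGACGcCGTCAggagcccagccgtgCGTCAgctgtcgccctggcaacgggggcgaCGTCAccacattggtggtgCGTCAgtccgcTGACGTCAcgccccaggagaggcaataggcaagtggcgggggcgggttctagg
PDE4B, chr1:65792260-65792559, plus strand: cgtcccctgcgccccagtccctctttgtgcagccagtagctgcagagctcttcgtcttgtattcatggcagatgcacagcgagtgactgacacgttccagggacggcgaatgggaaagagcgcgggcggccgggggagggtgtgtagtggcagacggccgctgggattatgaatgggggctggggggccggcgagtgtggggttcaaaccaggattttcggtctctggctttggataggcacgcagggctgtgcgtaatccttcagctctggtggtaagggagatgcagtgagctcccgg
PDE4D, chr5:59587576-59587875, minus strand: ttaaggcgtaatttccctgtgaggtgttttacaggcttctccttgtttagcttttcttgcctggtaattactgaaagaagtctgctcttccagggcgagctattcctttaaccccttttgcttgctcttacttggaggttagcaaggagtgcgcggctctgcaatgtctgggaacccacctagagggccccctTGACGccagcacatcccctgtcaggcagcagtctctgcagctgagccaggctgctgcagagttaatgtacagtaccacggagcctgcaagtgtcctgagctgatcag
PDE7B, chr6:135851451-135851750, plus strand: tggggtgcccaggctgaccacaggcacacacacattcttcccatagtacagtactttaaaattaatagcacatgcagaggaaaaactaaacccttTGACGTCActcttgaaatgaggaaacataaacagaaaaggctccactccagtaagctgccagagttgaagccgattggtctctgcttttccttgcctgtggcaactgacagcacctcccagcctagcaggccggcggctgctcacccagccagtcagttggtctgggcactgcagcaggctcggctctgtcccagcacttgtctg

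The PDE4A window, at the start of the gene in the deposited table, has 7 copies of the core, and its CRE begins 3 bases before the start. The PDE7B window has its CRE 155 bases before the start and no other copy. The PDE4D window has 1 copy of the core and is the only one of the 8 windows of that gene with any. The 2 genes with a CRE window, PDE4A and PDE7B, had log2 fold changes of 0.44 and -0.91, and PDE4B, without a match in its windows, had -1.92. Whether a match bears on these differences was not tested, and which start was in use was not measured. A match is a description of these letters and no evidence of binding.

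Of the 15 other phosphodiesterase genes, a list written from general knowledge, 6 had enough reads to be fitted and the other 9 had at most 10 counts in any library. No gene of this list met the thresholds in edgeR with adjusted p under 0.05 (0 of 6, with 2 at an unadjusted p under 0.05, and 0 in DESeq2), while 25.5% of all genes had an unadjusted p under 0.05. The arms did not overlap for 3 of the 6, all lower in shPUS1, beside 36.1% of all genes, with 2772 higher and 2555 lower. PDE2A, a cAMP-degrading enzyme that cGMP stimulates, stood at 15.3, 14.6 and 19.6 CPM in shControl and 12, 10.8 and 10.2 CPM in shPUS1, a log2 fold change of -0.58 ± 0.18 with an adjusted p of 0.107 in edgeR. PDE9A, a cGMP-specific enzyme, had a log2 fold change of 0.03 ± 0.19, and PDE6D, which carries prenylated proteins and is not itself a catalytic subunit, had 0.17 ± 0.17. PDE3B, the relative of PDE3A, was named after its values were seen. It stood at 6.87, 13.4 and 6.54 CPM in shControl and 5.4, 4.6 and 4.01 CPM in shPUS1, with log2 fold changes of -0.94 ± 0.32 and, without shControl replicate 2, of -0.53 ± 0.19. PDE8B, also named after its values were seen, was the third with arms that did not overlap, at 1.11 to 1.57 CPM in shControl and 0.77 to 1.09 CPM in shPUS1.

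The enzymes that make cyclic nucleotides and the proteins that respond to them were counted from 5 further lists. The lists were written from general knowledge, with earlier results of these data known, as was the list of other phosphodiesterases. They hold 84 genes in all, of which 68 were fitted. None met the thresholds in edgeR (0 of 68), which 1.37% of all genes met. In DESeq2 4 pathway genes met them, among 489 of the 27004 genes fitted there. An unadjusted p under 0.05 in edgeR was found for 21 of the 68, or 30.9%, beside 25.5% of all genes. The arms did not overlap for 27 of the 68, or 39.7%, of which 20 were higher and 7 lower in shPUS1, beside the 36.1% of all genes given above. Among the cyclases 0 of 7 fitted genes had arms that did not overlap, and ADCY3 and ADCY9, the most abundant adenylyl cyclases here, had log2 fold changes of -0.25 ± 0.16 and 0.42 ± 0.21. ADCY8, an adenylyl cyclase named after its values were seen, was too low to be fitted with all libraries, at 1, 2 and 0 counts in shControl and 7, 11 and 12 counts in shPUS1, and it met the thresholds when shControl replicate 2 was left out. Of the 13 fitted G proteins and receptors, 3 were higher and 2 lower without overlap, and the 2 with the highest mean FPKM, the inhibitory G protein GNAI2 and the adenosine receptor ADORA2B, had log2 fold changes of -0.10 ± 0.11 and -0.03 ± 0.20. ADORA2B stood above the stimulatory G protein GNAS in mean FPKM, but below it in shControl replicates 1 and 3 (25.3 and 24.5 against 27.0 and 27.5 FPKM). It also stood below GNAS in shPUS1 replicate 3 (28.2 against 30.3 FPKM). In CPM, which is not divided by length, GNAS was the higher, at a mean of 592 against 68.8 in shControl. The adenosine receptor ADORA2A, named after its values were seen, stood at 14.7, 6.45 and 13.1 CPM in shControl and 36.2, 36.3 and 24.4 CPM in shPUS1, without overlap. Its log2 fold change was 1.5 ± 0.32 with an adjusted p of 0.0519 in edgeR, just over the threshold, and 1.21 ± 0.19 with an adjusted p of 0.00516 without shControl replicate 2. Of the 16 fitted effectors, 3 were higher and 1 lower without overlap. PRKAR1A, a regulatory subunit of protein kinase A, was at 0.03 ± 0.11 and PKIG, an inhibitor of the kinase, at 0.49 ± 0.19. Among the 16 anchoring and scaffold genes 5 were higher and 3 lower without overlap, with RACK1, a partner of PDE4D, at -0.22 ± 0.11.

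The list of CREB factors and cAMP-induced genes had the highest median log2 fold change, 0.54 over 16 fitted genes against -0.03 over all genes. Of the 16, 9 were higher and 1 lower without overlap, together 62.5%. Over all genes the share was 36.1%, with 2772 higher and 2555 lower. CRTC2, a coactivator of CREB, stood at 45.2, 44.3 and 56.3 CPM in shControl and 79.2, 76.1 and 82.5 CPM in shPUS1, and it was the only gene of the 5 lists with an adjusted p under 0.05 in edgeR (0.0459), at a log2 fold change of 0.71 ± 0.14, below the fold threshold. DUSP1, an immediate early phosphatase, stood at 271, 32.9 and 254 CPM in shControl and 240, 233 and 209 CPM in shPUS1, so that shControl replicate 2 was far below the other 5 libraries. The same library was the lowest for NR4A2, an immediate early nuclear receptor named after its values were seen, with 7.46, 1.42 and 7.22 CPM in shControl against 14.9, 19.5 and 15.4 CPM in shPUS1. Its log2 fold change was 1.64 ± 0.52 (adjusted p of 0.11 in edgeR) with all libraries and 1.17 without shControl replicate 2, and that of DUSP1 turned from 0.29 to -0.21. The median of the list was 0.48 without this library, beside -0.02 over all genes. The list was chosen with earlier results of these data known, so these values are a description.

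**Figure D4:**
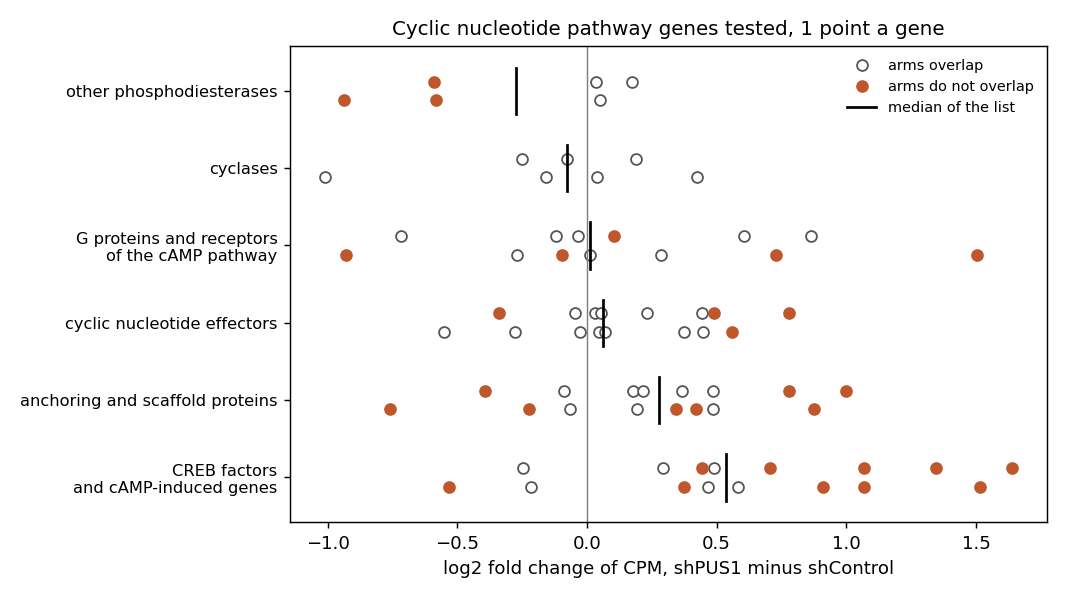
Log2 fold change of CPM (horizontal axis, shPUS1 minus shControl) of the fitted genes of 6 lists (rows), 1 point for each gene; filled points are genes whose arms did not overlap, open points genes whose arms did, and the black bar is the median of each list. The CREB list has 9 filled points to the right of 0 and 1 to the left, and the cyclases have none.

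Over the 6 libraries, the genes whose log2 CPM profile lay closest to that of PDE4B, after each was centred on its own mean, were MIR210HG, GBP5, FPR1, CCDC74A and SPRY1, with root mean square distances of 0.20, 0.24, 0.25, 0.25 and 0.27 on the log2 scale among 14747 genes. MIR210HG (chromosome 11, 565660 to 568457), the host transcript of a miRNA that hypoxia induces, stood at 10.9, 4.72 and 9.13 CPM in shControl and 2.62, 2.30 and 2.60 CPM in shPUS1. Like PDE4B, each of the 5 nearest genes was lowest among the controls in shControl replicate 2, and they were chosen for a like profile. GBP5 encodes an interferon-induced GTPase, FPR1 a receptor for formylated peptides and SPRY1 an inhibitor of receptor tyrosine kinase signalling. Among the other members PDE7B was the nearest to PDE4B, at a distance of 0.49 and at position 83 in the order, followed by PDE4D at 0.72, while PDE4A lay at 1.15 and PDE5A at 1.28.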

How the data were processed

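The authors sequenced poly(A)-selected RNA of MDA-MB-231 cells in 3 shControl and 3 shPUS1 libraries. Per the submitters' processing notes, reads were aligned with HISAT2 and counted with HTSeq 0.6.1. The genome build and the strandedness of the counting are not given in the sources used here. For every gene the authors deposited an estimated count, not normalized and in part not whole, and an FPKM value derived from it. Of the counts above 0, 29.8% to 31.8% in a library were not whole. How such counts came from HTSeq is not explained in the sources used here. Library totals were 14241505 to 19625998 counts, and this depth leaves genes of a few counts unmeasured.

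The rounded counts passed filterByExpr, were scaled with TMM factors and were tested by quasi-likelihood in edgeR 4.0.16 (R 4.3.3), with Benjamini-Hochberg adjustment over 14748 genes. Standard errors are those implied by the test statistic. Alternatives used DESeq2 1.42.0 and limma 3.58.1, the latter on log2(FPKM + 1) and log2(FPKM + 0.1) with a mean of at least 0.1 FPKM. The code was tested on simulated data. Tables and plots were made in Python 3.11.15 with pandas 2.3.3, numpy 2.4.6 and matplotlib 3.10.9.

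The members and lists were chosen with earlier results of these data known. The genes named were the members, PUS1, other phosphodiesterases with a mean of at least 1 FPKM in either arm or past the thresholds, the 2 most abundant genes of each list without a gene past the thresholds, the 5 nearest profiles to PDE4B and the genes overlapping it. Others were named after their values were seen. A gene that this rule names is not reported here. Deposited coordinates equal those of GENCODE release 29 for 4 of the 9 members.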

Additional observations from a re-analysis of the deposited data

How the results depend on the processing

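Of 104 member fold changes recomputed under 13 alternatives, 101 moved by less than 1 pooled SD of log2 CPM and the other 3 (PDE4B and PDE7B) by more. PDE4B was negative in all 13, from -2.15 without shControl replicate 2 to -0.54 with limma on log2(FPKM + 1), a scale that understates changes of low genes. PDE7A, PDE8A and PDE10A, near 0, changed sign in 1, 3 and 2 alternatives. All genes past the thresholds numbered 202 (131 higher, 71 lower), against 536 without a filter on low counts, 489 in DESeq2, 72 and 107 with limma at pseudocounts of 1 and 0.1 FPKM, 380 without a fold threshold, and 178 higher and 53 lower with quantile normalization. With a replicate block 18 genes passed and 0 of the members, and the numbers did not pair the libraries (residual correlations of -0.05, -0.03 and -0.19 across genes). The member count was also 0 in both limma fits. The pathway count was 0, against 1 with quantile normalization (ADORA2A), 4 without the filter, 4 in DESeq2 (ADORA2A, AKAP13, NR4A2 and PPARGC1A) and 1 without a fold threshold. Leaving out 1 library gave 0 to 497 genes in all, 0 to 2 members and 0 to 3 pathway genes. The highest of these came without shControl replicate 2. Without shControl replicate 1 or any 1 shPUS1 library at most 11 genes and 0 members passed, and without shPUS1 replicate 3 no gene did in edgeR, with 2581 at an unadjusted p under 0.05. The count of other phosphodiesterases was 0 in every setting.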
